A study of Mus musculus and Rattus norvegicus with 96 samples.

Results

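Rat liver that was frozen first and fixed in formalin afterwards (FR>FFPE) was compared with rat liver that was only frozen (FR). The members were the 6 FR>FFPE libraries and the 6 FR libraries that the sample labels name in the rat liver table, 12 of its 18 libraries and 12 of the 96 libraries of the series. All 18 came from male F344 rats given vehicle control. FR>FFPE tissue had been frozen before it was kept in 10% neutral buffered formalin for 18 to 24 h and embedded in paraffin, whereas the 6 FFPE libraries, used below as the nearest group, came from tissue that went straight into the same fixative for the same time. The FR libraries are titled RNA, and the protocol in the labels treats RNA as an input of its own beside lysates of embedded tissue, which were deparaffinized under mineral oil. Preservation and the kind of input therefore changed together between FR and FR>FFPE and cannot be told apart. The labels give neither the age of the rats nor whether each library came from its own rat, so p-values measure only the spread between these libraries. The rat lung libraries used in the last comparison came from male WKY rats, so tissue and strain cannot be told apart either.

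Formalin forms methylene adducts and crosslinks on nucleic acids and proteins, and RNA taken from paraffin blocks is usually fragmented. Templated oligo assays such as TempO-Seq were designed for such material. A pair of detector oligos anneals side by side on a short stretch of the transcript, the pair is ligated, and the ligated product is amplified and counted, so that neither a poly(A) tail nor reverse transcription is needed. The counts do not scale with transcript length, but different probes can capture their targets unequally. The liver itself is dominated by hepatocytes, which make most plasma proteins, oxidize and synthesize fatty acids, convert cholesterol to bile acids and clear foreign compounds through cytochromes P450, conjugating enzymes and transporters, alongside smaller numbers of Kupffer cells, endothelial cells, stellate cells, bile duct cells and lymphocytes. Each gene is represented here by its deposited count, and levels are given as CPM (counts scaled to a common library total) after trimmed mean of M-values (TMM) scaling.

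Total counts ranged from 2156621 to 3898086 among FR>FFPE libraries and from 3040907 to 3970188 among FR libraries (exact two-sided permutation test, p = 0.0844), against 139477 to 889125 in the FFPE libraries. Of 15 hepatocyte markers on the lists, 11 had a count in the rat liver table, and these had counts in both groups. That is no check of the labelled tissue, since FR>FFPE libraries had only 3 to 51 of the genes tested at 0. The 9 lung epithelium markers on the lists had no count in any rat liver or rat lung library, so they check nothing here. Counts of 8 genes, Alb and Apoa1 among them, were whole multiples of a number above 1 in every liver library (9 for Alb and 7 for Apoa1). The source of the multiples is not stated, so the levels of these genes relative to other genes are uncertain. A constant multiple cancels when the counts of 1 gene are compared between libraries. The multiplied counts do enter the library totals, so they bear on every total count value and on the shares taken by the most abundant genes. Multiples were divided out in a TMM fit only, which gave 1130 DEGs, and not under total count. Albumin had the highest deposited count of both groups, but not once such counts were divided by their multiples. Genes whose deposited counts hold fractions share reads with similar genes, and their split is uncertain; where such a gene is named below it is said to hold fractional counts.

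The 12 libraries were not equally alike. On log2(CPM + 1) over 2281 genes, FR libraries correlated with each other at 0.987 to 0.991, FR>FFPE libraries at 0.923 to 0.981, and FR with FR>FFPE libraries at 0.856 to 0.954. Within FR>FFPE, libraries 73, 74 and 78 lay together apart from 75, 76 and 77 for many genes: all of the first set were below all of the second for 435 genes (19.1% of those tested) and above them for 411 genes (18.0%). Among the 371 genes called lower in FR>FFPE than in FR, 231 (62.3%) had libraries 73, 74 and 78 below the others. No label separates these libraries. Of 88 DEGs chosen by the rule for named genes, 74 stayed DEGs in the same direction without libraries 73, 74 and 78. Eif2s1, Zfp36, Hsp90b1, Lcn2, Akr1d1, C1qa, Eng, Krt8, Hbegf, Synpo2l, LOC100911204, Lpl and LOC100912485 kept their direction but were no longer DEGs, and Lamp3 was no longer tested.

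Frozen-then-formalin liver gave counts for more genes than frozen liver. At least 1 count was found for 2405 to 2473 genes in FR>FFPE (median 2451) and for 2134 to 2238 in FR (median 2190.5). With a minimum of 10 counts, FR>FFPE libraries gave 1882 to 2197 genes and FR libraries 1586 to 1710. The groups did not overlap in either measure (exact two-sided permutation test, p = 0.00216, the smallest that 6 against 6 can give; adjusted p = 0.00361 over 5 measures). The 100 most abundant genes took 78.3% ± 1.92 (SD, n = 6) of all counts in FR>FFPE and 82.0% ± 0.603 in FR (exact permutation p = 0.00216, adjusted p = 0.00361). The share of the 10 most abundant genes was 43.4% ± 5.14 against 48.5% ± 1.91, which did not pass (exact permutation p = 0.0628, adjusted p = 0.0785). After thinning each library to 139477 counts, the FR>FFPE libraries still gave more genes with at least 1 count, 1776 to 2047 against 1452 to 1526.

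Of 2281 genes tested, 1138 differed between FR>FFPE and FR by at least 2-fold with an adjusted p under 0.05 in edgeR's quasi-likelihood test with Benjamini-Hochberg adjustment, 49.9% of the genes tested. Such genes are called DEGs below. There were 767 DEGs higher in FR>FFPE (33.6%) and 371 lower (16.3%). Without the fold change, 999 genes were higher (43.8%) and 628 lower (27.5%). The FR and FR>FFPE libraries did not overlap at all for 1056 genes (46.3%), 589 with FR>FFPE higher (25.8%) and 467 with FR>FFPE lower (20.5%). The median log2 fold change of all genes was 0.37. Scaling by total count moved that median by 0.71, to 1.08, and gave 1294 DEGs (56.7%), 1172 of them higher and 122 lower (51.4% and 5.35% of the genes tested). Between the scalings 411 genes (18.0%) turned direction, 7 of them (0.307%) with an adjusted p under 0.05 both ways. Without libraries 73, 74 and 78 there were 613 DEGs higher and 279 lower. All 767 genes called higher under TMM were also called higher under total count, while 122 of the 371 called lower were also called lower. Since total count moved the fold changes upward, the first of these is no separate check. The statements that follow use TMM values unless total count is named. For genes named by the rule, the direction under total count is given where it turned. For gene lists and for genes named after their values had been seen, it is given only in part.

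Among the genes tested, the change followed the level of the gene. When the 2281 genes were cut into quintiles by their mean log2(CPM + 1) over the 12 libraries, the median log2 fold change went from 2.95 in the lowest quintile through 0.92, 0.16 and -0.33 to -0.63 in the highest. In the lowest quintile 390 of 457 genes were DEGs higher in FR>FFPE and 0 were lower, with 0 lower at an adjusted p under 0.05 without the fold change. Genes near 0 in FR were tested only where FR>FFPE or FFPE libraries brought them past the filter. The mean that sets the quintiles also includes the FR>FFPE values. The share called higher in the lowest quintile is therefore partly set by the selection of genes. In the highest quintile 29 of 456 were higher and 154 were lower. Under total count the medians were 3.58 in the lowest quintile and 0.08 in the highest. Total count moved all the quintiles up by a similar amount, so this is no separate check of their order. All 6 FR>FFPE libraries showed it. Their median shift from the FR mean was 0.90 to 2.24 on the log2(CPM + 1) scale in the lowest quintile, least in library 76 and most in library 78, and -1.07 to -0.51 in the highest quintile, whereas the FR libraries stayed between -0.11 and 0.12 in every quintile.

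**Figure D1:**
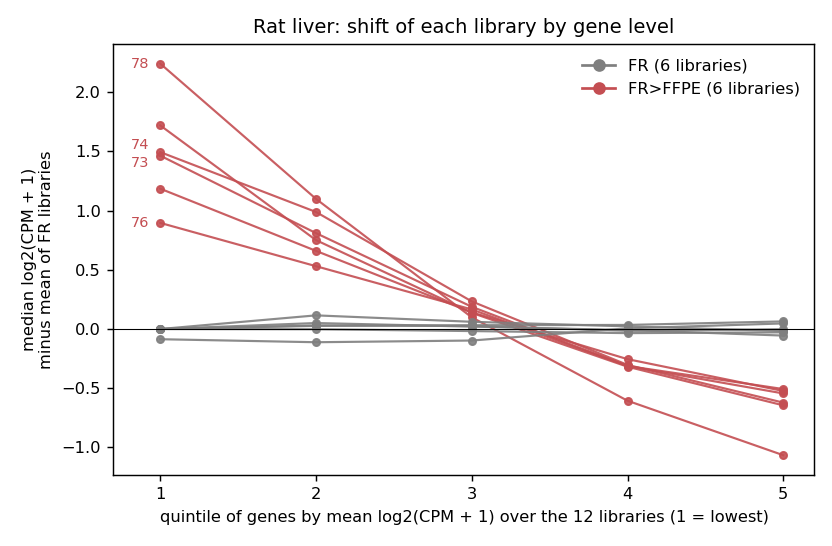
Median difference of log2(CPM + 1) from the mean of the 6 FR libraries (y axis) for each quintile of the 2281 genes, ordered by mean level from lowest to highest (x axis); 1 line per library, FR in grey and FR>FFPE in red. Every FR>FFPE line runs from 0.90 or more in the lowest quintile to -0.51 or less in the highest, with library 78 farthest from FR at both ends.

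Expressed as a difference of levels, low genes gained a few CPM. The median gene of the lowest quintile was at 0.338 CPM in FR and 4.06 CPM in FR>FFPE, and the median differences in the 3 lowest quintiles were 3.37, 4.60 and 2.81 CPM. The range from the 10th to the 90th percentile of genes spanned 9.28 ± 0.234 log2 units in FR, 6.82 ± 0.595 in FR>FFPE and 5.19 ± 0.615 in FFPE (mean ± SD, n = 6 each). In total, 90 of the genes tested were at 0 in every FR library, and 68 of these had a count in every FR>FFPE library, at a median of 3.70 CPM, whereas 0 genes were at 0 in every FR>FFPE library. Because low genes pass the filter through the groups in which they have counts, their number depends on the filter: with only the FR and FR>FFPE libraries in the fit, 395 of the 2281 genes were no longer tested, among them 319 of the 767 DEGs higher in FR>FFPE and 0 of those lower, and the DEGs came to 463 higher and 352 lower.

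**Figure D2:**
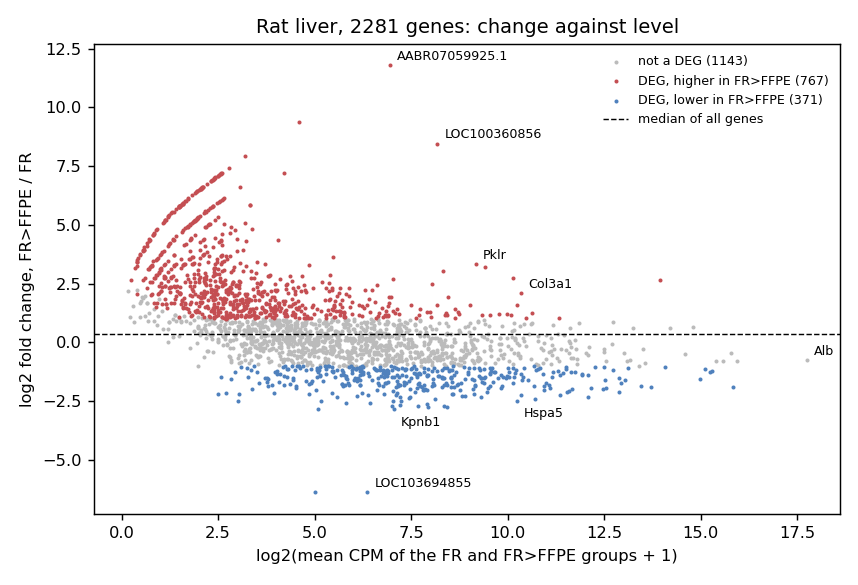
Log2 fold change FR>FFPE over FR (y axis) against log2 of the mean CPM of both groups plus 1 (x axis), 1 point per gene, with the 767 DEGs higher in FR>FFPE in red and the 371 lower in blue. Red points crowd the left, where genes are low, and blue points the middle and right; the dashed line is the median of all genes, 0.37.

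Genes of muscle and nerve were looked at after values had been seen, with a list drawn up for the purpose. Of its 43 entries 20 had counts and 15 were tested: 13 were DEGs higher in FR>FFPE and 1 was lower. Their median level in FR was 0.154 CPM, and 85.3% of all genes in the lowest quintile were DEGs higher in FR>FFPE, so nothing particular to muscle and nerve is read from the count. Their summed level was 14.7 to 22.8 CPM in FR (median 18.8), 44.7 to 135 CPM in FR>FFPE (median 68.8) and 137 to 316 CPM in FFPE (median 164), so the 3 groups did not overlap. The 90 genes at 0 in every FR library rose in the same order, to medians of 3.70 CPM in FR>FFPE and 11.2 CPM in FFPE. The list's median gene was at 5.00 and 11.1 CPM in these groups, so nothing particular to muscle and nerve is read from the sums either. Lung transcripts were a further point of reference, since lung was run on the same panel. The 304 genes at or below 1 CPM in liver FR had a median of 5.86 CPM in liver FR>FFPE where lung FR was also at or below 1 CPM (153 genes), 3.83 CPM where lung FR was between 1 and 10 CPM (106 genes), 4.70 CPM between 10 and 100 CPM (36 genes) and 3.89 CPM above 100 CPM (9 genes). The median level in liver FR>FFPE did not rise with the level in lung FR, but the filter bears on this. Genes at or below 1 CPM in both FR groups entered the joint fit only through FR>FFPE libraries. Genes high in lung FR could enter through lung FR. No conclusion is therefore drawn from these medians or from the correlations that follow. Across these 304 genes the log2(CPM + 1) of liver FR>FFPE correlated with that of lung FR>FFPE at r = 0.54 and with that of lung FR at r = -0.16; the points share probes and scaling, and genes are not independent replicates.

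The 10 largest rises among genes of at least 20 CPM whose libraries did not overlap under either scaling included both unannotated loci and genes of known liver function. Pklr, which encodes the liver and red cell pyruvate kinase, the last step of glycolysis (chromosome 2, 188449210 to 188459593, rn6), was at 68.1, 83.4 and 225 CPM in FR (lowest, median, highest) and at 614, 1038 and 1650 CPM in FR>FFPE. Its log2 fold change was 3.32 ± 0.29 (SE), with adjusted p = 1.59e-09, and its counts hold fractions. Serpinf2, the plasma inhibitor of plasmin (chromosome 10, 62264788 to 62273120), was at 96.8, 132 and 174 CPM in FR and at 688, 1021 and 2211 CPM in FR>FFPE, a log2 fold change of 3.22 ± 0.27. Neither gene's groups overlapped, and both genes were also above FR in the directly fixed FFPE libraries, at medians of 605 and 807 CPM. Without libraries 73, 74 and 78 their log2 fold changes were 3.00 and 2.51. Mup4, a major urinary protein that liver secretes, was more abundant still and was named after its values had been seen: with fractional counts, it was at 3209, 4135 and 6329 CPM in FR and at 19619, 25786 and 42758 CPM in FR>FFPE, without overlap (2.64 ± 0.24).

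Several of the rises started from almost nothing. AABR07059925.1, an unnamed locus with fractional counts on chromosome 4 (43915333 to 43916029), had 0 counts in every FR library and 169 to 309 CPM in FR>FFPE (median 245), at least 983-fold higher against a floor of 3 counts over the FR group. Ptgdr, a receptor for prostaglandin D, also had 0 counts in every FR library and reached 26.5 to 82.6 CPM, at least 197-fold higher. Their FFPE medians were lower than those of FR>FFPE, at 43.1 and 13.9 CPM. Gdpd5 had 2 counts in all FR libraries together and 585 in FR>FFPE, a ratio of 220 with a 95% counting interval of 60.5 to 1817, which covers counting error only. LOC100360856, with fractional counts, was at 0.586 to 2.11 CPM in FR and 309 to 982 CPM in FR>FFPE (log2 fold change 8.46 ± 0.37, adjusted p = 1.91e-15), and at a similar FFPE median of 608 CPM.

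The rest of the 10 rises were smaller in level. Btg2, an antiproliferative immediate early gene, went from 3.80, 5.18 and 6.45 CPM in FR to 22.4, 43.6 and 104 CPM in FR>FFPE, with a log2 fold change of 3.29 ± 0.33. Alad, the enzyme of the second step of heme synthesis, went from a median of 1.87 to 17.7 CPM (3.35 ± 0.42). Ms4a6c and LOC100910057, the latter with fractional counts, had log2 fold changes of 4.34 and 3.63. In each of these genes every FR>FFPE library lay above every FR library.

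**Figure D3:**
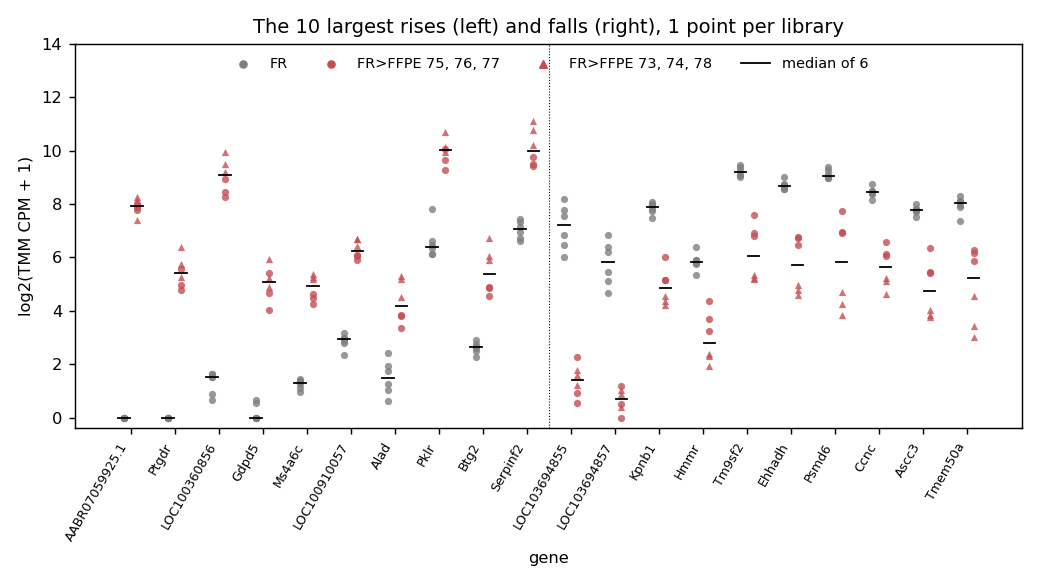
Log2(CPM + 1) of each library for the 10 largest rises (left of the dotted line) and the 10 largest falls (right), FR in grey and FR>FFPE in red, with libraries 73, 74 and 78 as triangles and the median of 6 as a bar. The FR and FR>FFPE libraries do not overlap for any of the 20 genes, and for falls such as Psmd6 and Tm9sf2 the triangles sit below the other FR>FFPE points.

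The rule for named genes asks for at least 20 CPM in either group, so the largest falls had to start from at least that level in frozen liver. The contrast with rises from almost nothing is set by the rule. A pair of loci beside Hbb on chromosome 1, LOC103694855 (168945449 to 168965567) and LOC103694857 (168957460 to 168958837), both with fractional counts, fell from medians of 151 and 58.2 CPM in FR to 1.66 and 0.646 CPM in FR>FFPE, log2 fold changes of -6.39 ± 0.43 and -6.38 ± 0.47, and had 0 counts in every FFPE library. Kpnb1, the importin beta that carries cargo into the nucleus, was at 176, 236 and 270 CPM in FR and at 17.8, 28.4 and 63.6 CPM in FR>FFPE (-2.86 ± 0.25, adjusted p = 1.59e-09). Psmd6, a regulatory subunit of the proteasome, was at 499, 535 and 669 CPM in FR and at 13.4, 73 and 215 CPM in FR>FFPE (-2.72 ± 0.46, adjusted p = 1.32e-05). For Psmd6 libraries 73, 74 and 78 were the lowest of the FR>FFPE group, and its log2 fold change without those libraries was -1.88.

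Libraries 73, 74 and 78 also mattered for the other falls. Ehhadh, the bifunctional enzyme of peroxisomal fatty acid oxidation, fell by 2.73 ± 0.34 on the log2 scale, from 376 to 518 CPM in FR to 23.3 to 109 CPM. Tm9sf2, Ccnc (cyclin C), Ascc3, Tmem50a and Hmmr fell by 2.76, 2.71, 2.70, 2.65 and 2.83. Without libraries 73, 74 and 78 the log2 fold changes of these 6 genes and of Kpnb1 lay between -2.39 and -1.90, each still a fall.

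The counts of each gene list below stand beside 33.6% of all genes called higher and 16.3% called lower, and these shares changed with level as described above. Under total count the shares of all genes were 51.4% and 5.35%, and the median of every list was higher than under TMM. Among abundant hepatocyte products, more members fell than rose under TMM. Of 23 secreted hepatocyte proteins tested, 7 were DEGs lower in FR>FFPE, 1 was higher and 15 were neither. Their median log2 fold change was -0.79, which is -1.16 relative to the median of all genes, and 16 of the 23 were below the median of their own quintile. Under total count 6 of the 23 were DEGs higher and 3 lower, with a median of -0.07, which is -1.15 relative to all genes. Alb was at 225655, 284678 and 306720 CPM in FR and at 115421, 145291 and 229153 CPM in FR>FFPE (-0.76 ± 0.25, adjusted p = 0.00948). The groups overlapped for Alb, and under total count its log2 fold change was -0.06 and did not pass. Serpina1, alpha-1-antitrypsin, did not overlap: 78904 to 104250 CPM in FR against 15219 to 37342 CPM in FR>FFPE (-1.90 ± 0.27, with fractional counts), and -1.17 under total count. Tf, the iron carrier transferrin, fell by 2.19 ± 0.21 from a median of 641 to 124 CPM.

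Other abundant plasma proteins depended on the scaling. Apoa1 and Fga, the main protein of high-density lipoprotein and a fibrinogen chain, had log2 fold changes of -0.79 (adjusted p = 0.00402) and -0.80 (adjusted p = 0.0099) under TMM and of -0.06 and -0.12 under total count, which did not pass. C3, the central complement component, was at 52174 to 81301 CPM in FR and 36535 to 67953 CPM in FR>FFPE (-0.46 ± 0.24, adjusted p = 0.0845) and turned to 0.23 under total count. LOC259245, with fractional counts, was among the 5 genes with the highest deposited counts in FR>FFPE and had a log2 fold change of 0.66 ± 0.29 (adjusted p = 0.0458), which fell to 0.04 without libraries 73, 74 and 78. Lcn2, an iron-binding protein of the acute phase, was at 0 to 1.55 CPM in FR and 0 to 3.94 CPM in FR>FFPE, with overlapping groups, and its adjusted p of 0.0472 rose above 0.05 when any of 6 single libraries was left out.

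The complement and coagulation list divided. Of 35 members tested, 8 were DEGs higher and 11 lower, with a median of 0.20. Cfi, the protease that inactivates C3b, fell by 2.32 ± 0.27, from 6111, 6806 and 9003 CPM in FR to 693, 1544 and 2247 CPM in FR>FFPE, with no overlap under either scaling.

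Lipid metabolism showed more falls than rises under TMM. Of 29 fatty acid oxidation genes tested, 10 were DEGs lower and 2 higher (median -0.57). Of 23 genes of sterol and fatty acid synthesis 11 were lower and 3 higher (median -0.79). In these lists 19 and 15 genes were below the median of their quintile. Under total count the oxidation genes had 6 DEGs higher and 4 lower (median 0.15). The synthesis genes then had 5 higher and 4 lower (median -0.08). Acaa2, the mitochondrial thiolase and the most abundant oxidation gene, went from 9384, 10874 and 14007 CPM in FR to 2459, 3872 and 6236 CPM in FR>FFPE, a fall of 1.54 ± 0.23 on the log2 scale. Thrsp (Spot 14), a regulator of lipogenesis, fell from a median of 7414 to 1831 CPM (-1.95 ± 0.29), and Me1, malic enzyme, from 448 to 89.1 CPM (-2.39 ± 0.28). Hmgcs1, the cytosolic synthase of the cholesterol pathway, moved the other way, from 3.52, 5.44 and 9.98 CPM to 27.0, 31.8 and 90.8 CPM (2.83 ± 0.30). Acot1, at a median of 0.259 CPM in FR and 2.85 CPM in FR>FFPE, was the largest rise of the oxidation list.

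Bile acid, carbohydrate and amino acid genes moved in both directions. Among 12 bile acid genes 2 were DEGs higher and 4 lower (median -0.36), while total count gave 4 higher and 1 lower (median 0.32). Akr1d1, the 5-beta-reductase of bile acid synthesis, fell from a median of 2851 to 1083 CPM (-1.37 ± 0.25), and Abcg8, a subunit of the canalicular sterol transporter, had 1 count in the FR libraries together and 252 in FR>FFPE, a ratio of 189 (95% counting interval 33.6 to 7502). Among 16 genes of carbohydrate metabolism 3 were higher and 3 lower. Pygl, glycogen phosphorylase, fell by 1.31 ± 0.17 on the log2 scale, from 1496, 1624 and 1893 CPM in FR to 476, 678 and 854 CPM in FR>FFPE, with no overlap. Among 14 amino acid and urea cycle genes 0 were DEGs higher and 6 lower (median -0.49), while total count gave 1 higher and 2 lower (median 0.23). Fah, the last enzyme of tyrosine breakdown, fell from 2404 to 2899 CPM to 293 to 1083 CPM (-1.85 ± 0.26). Bhmt, which remethylates homocysteine, rose with adjusted p = 0.00729 but with overlapping groups (0.77 ± 0.25).

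Genes of the respiratory chain and of protein turnover are few on the panel. Of 3 complex I genes 0 were DEGs. Ndufb8 went from 671 to 813 CPM to 348 to 504 CPM (-0.73 ± 0.19, and -0.03 under total count), while the assembly factor Ndufaf4 went from 10.5 to 16.7 CPM to 23.2 to 25.9 CPM (0.86 ± 0.19). Among 8 genes of complexes II to V, 2 were higher and 2 lower. Atp5c1, the gamma subunit of ATP synthase, fell most, from 2582, 2714 and 3395 CPM to 270, 576 and 731 CPM (-2.40 ± 0.24), and Cox8b, a subunit of muscle cytochrome oxidase, was at 0 in every FR library and at 1.26 to 5.98 CPM in FR>FFPE, at least 11.5-fold higher.

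The DEGs among translation factor and proteasome genes were more often lower than higher. Of 10 ribosomal protein genes tested 1 was a DEG higher and 1 lower, and 5 were lower at an adjusted p under 0.05. Rps6, the most abundant, had a log2 fold change of -0.66 that turned to 0.04 under total count, and the rise was that of Rpl3l, a muscle paralog at 0 in every FR library and at 0 to 5.12 CPM in FR>FFPE, at least 8.01-fold higher. Of 6 translation factors 3 were DEGs lower and 0 higher. Eif2ak2, the double-stranded RNA-activated kinase, fell from 52.2, 57.2 and 71.8 CPM to 7.92, 9.56 and 16.6 CPM (-2.51 ± 0.22). Eif2s1, the initiation factor subunit that this kinase phosphorylates, fell by 1.06 ± 0.16. Of 13 proteasome genes 2 were higher and 4 lower. Psmd10 rose by 1.22 ± 0.25 on the log2 scale, and the activator subunit Psme1 had a log2 fold change of 0.20 that did not pass.

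Genes that handle foreign compounds moved in both directions. Among 22 cytochrome P450 genes 5 were DEGs higher and 5 lower, with a median of 0.06. Cyp3a2, the most abundant (fractional counts), was at 13903, 15395 and 18493 CPM in FR and at 6031, 8315 and 11143 CPM in FR>FFPE (-0.90 ± 0.21), which under total count came to -0.19 and did not pass. Cyp2c23, an arachidonic acid epoxygenase, fell from 605 to 985 CPM to 73.4 to 240 CPM (-2.30 ± 0.25) under both scalings. Cyp2w1 was at 0 in every FR library, at a median of 1.12 CPM in FR>FFPE and at 24.4 CPM in FFPE.

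Of 12 phase II enzymes 2 were DEGs higher and 4 lower. Within the glucuronosyltransferases, Ugt2a1 rose from 109, 132 and 193 CPM to 291, 397 and 611 CPM (1.61 ± 0.22), while Ugt2b10, with fractional counts, fell from 1146, 1419 and 1786 CPM to 166, 393 and 627 CPM (-1.88 ± 0.26). Both were without overlap under either scaling. Gsta2, a glutathione transferase with fractional counts, had a log2 fold change of -0.53 that turned to 0.18 under total count.

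Among 19 drug transporters 6 were DEGs higher and 2 lower. Slco1b2, the hepatic uptake carrier for organic anions (fractional counts), fell from 816 to 1460 CPM to 114 to 560 CPM (-1.96 ± 0.28). Slc10a1, the sodium-dependent bile acid carrier, had a log2 fold change of -0.93 ± 0.23 under TMM and -0.26 under total count, which did not pass. Slco1c1, a thyroid hormone carrier of the blood-brain barrier, was at 0 in every FR library and at 4.21 to 10.9 CPM in FR>FFPE, at least 31.0-fold higher.

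The 22 nuclear receptors and related sensors included 8 DEGs higher and 3 lower, close to the 33.6% and 16.3% of all genes, with a median of 0.70 and 8 of the 22 below the median of their own quintile. Ahr, the dioxin receptor, fell from 605, 705 and 1020 CPM to 74.3, 139 and 229 CPM (-2.27 ± 0.26), and Rxra, the shared partner of many receptors, from a median of 752 to 295 CPM (-1.35 ± 0.21). Nr0b1, an adrenal and gonadal factor, had 1 count in FR and 74 in FR>FFPE, a ratio of 55.6 (95% counting interval 9.67 to 2224). Of 18 Nrf2 targets and antioxidant genes 5 were higher and 7 lower. Nqo1, a quinone reductase and a common readout of Nrf2, rose from 12.8, 19.9 and 23.2 CPM to 62.7, 86.7 and 140 CPM (2.33 ± 0.22). Gclm, the modifier subunit of glutamate-cysteine ligase and a target of the same factor, fell from 34.0 to 48.7 CPM to 6.34 to 27.5 CPM (-1.79 ± 0.26), so members of this list moved in opposite directions. Cat, catalase, fell by 1.06 ± 0.23 from a median of 21321 to 11768 CPM.

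Stress genes were likewise split. Of 17 immediate early genes, which are induced within minutes of a stimulus, 9 were DEGs higher and 2 lower, with a median of 1.31 and a median FR level of 5.18 CPM; 9 of the 17 were below the median of their own quintile. Egr2 had 1 count in the FR libraries together and 28 in FR>FFPE, a ratio of 21.0 (95% counting interval 3.48 to 859.5). Zfp36, the most abundant, fell from 169 to 554 CPM in FR to 40.8 to 264 CPM in FR>FFPE (-1.26 ± 0.36), with overlapping groups, and -0.48 under total count, which did not pass.

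Heat shock and unfolded protein response genes moved in opposite directions within a compartment. Of 14 heat shock genes 5 were DEGs higher and 4 lower. Hspa5, the main chaperone of the endoplasmic reticulum, fell from 1781, 2018 and 2345 CPM in FR to 106, 339 and 762 CPM in FR>FFPE (-2.50 ± 0.34, adjusted p = 7.18e-07, and -1.86 without libraries 73, 74 and 78). Hsp90b1, a partner chaperone of the same compartment with fractional counts, rose from 1455, 1626 and 2140 CPM to 2921, 3182 and 4503 CPM (1.03 ± 0.18, adjusted p = 2.84e-05), and neither gene's groups overlapped under either scaling. Calr, calreticulin, lay between, with a log2 fold change of -0.32 ± 0.23 that did not pass and turned to 0.39 under total count. Cryab, a small heat shock protein abundant in muscle and lens, went from 0.463 to 2.59 CPM to 6.27 to 27.0 CPM (3.39 ± 0.44). Of 15 genes of the unfolded protein and amino acid stress list 5 were higher and 4 lower; Chac1 had 3 counts in FR and 42 in FR>FFPE, a ratio of 10.5 (95% counting interval 3.36 to 53).

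The p53 target and cell cycle lists had shares of DEGs near those of all genes, which were 33.6% higher and 16.3% lower. Among 17 p53 target and DNA damage genes 7 were DEGs higher and 3 lower (median 0.74), with 9 of the 17 below the median of their own quintile. Rrm2b, the p53-inducible ribonucleotide reductase subunit, fell from 204 to 255 CPM to 75.7 to 91.6 CPM (-1.38 ± 0.15), and Phlda3 went from 0 to 1.55 CPM to 1.26 to 7.01 CPM (3.32 ± 0.76). Among 25 cell cycle genes 10 were higher and 4 lower (median 0.86, median FR level 12.1 CPM), with 10 of the 25 below the median of their own quintile. Kif11, a mitotic kinesin, was at 0 in every FR library and at 4.74 to 14.9 CPM in FR>FFPE, at least 41.3-fold higher. Ccna2, cyclin A2 with fractional counts, fell from 102, 149 and 235 CPM to 15.5, 27.5 and 90.2 CPM (-2.03 ± 0.36). Cdc20 was the most abundant and did not pass (-0.10 ± 0.23), turning to 0.59 under total count.

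Cytokines and chemokines were the list with the most DEGs higher in FR>FFPE, 21 of 32 tested, against 1 lower, with a median of 1.96. These are genes barely detected in FR, at a median of 2.14 CPM, and 13 of the 32 were below the median of their own quintile; of all genes in the lowest quintile 85.3% were DEGs higher and in the second 47.6%. Il36g, an epithelial interleukin, was at 0 in every FR library and at 7.12 to 16.8 CPM in FR>FFPE, at least 49.3-fold higher. Il1b, the inflammasome product, was the DEG that was lower, at 22.7 to 37.3 CPM in FR and 11.3 to 19.1 CPM in FR>FFPE (-1.02 ± 0.23, and -0.27 under total count, which did not pass). Cxcl12, made by stromal and endothelial cells, had a log2 fold change of -0.45 ± 0.19 that turned to 0.23 under total count and lost its adjusted p under 0.05 when any of 6 single libraries was left out.

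**Figure D4:**
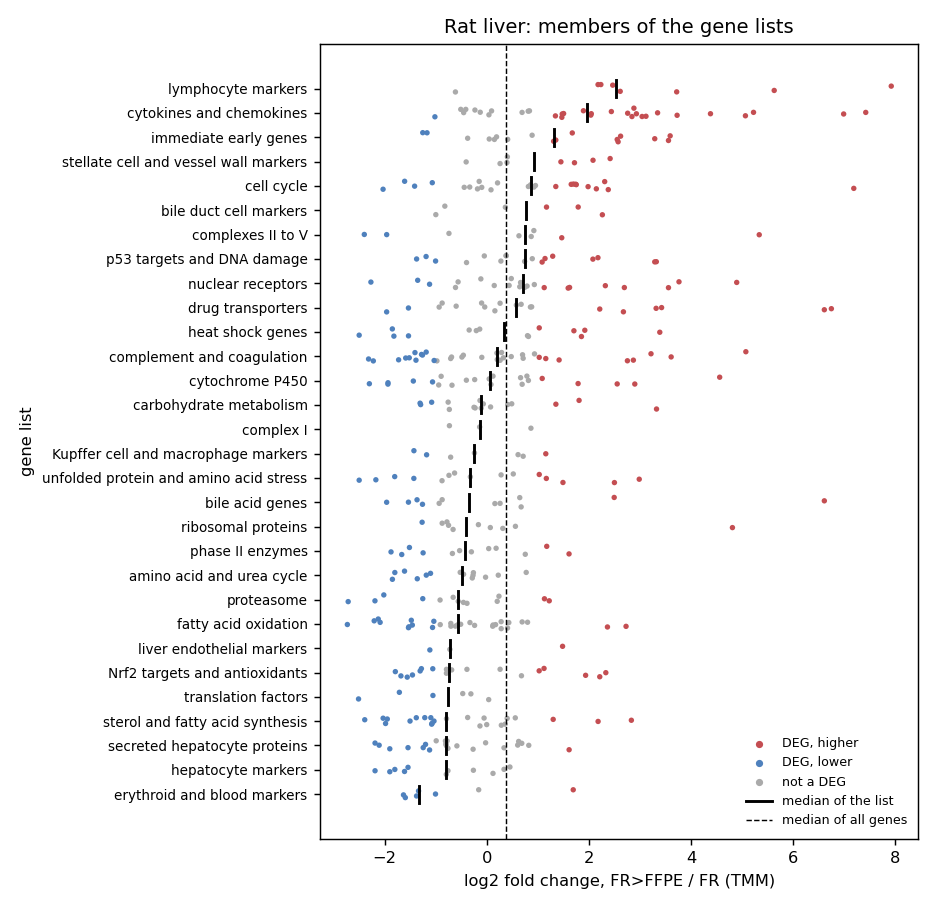
Log2 fold change FR>FFPE over FR (x axis) of the tested members of 30 gene lists (y axis, ordered by their median), 1 point per gene; DEGs higher are red, DEGs lower are blue, the black bar is the list's median and the dashed line the median of all genes, 0.37. Lymphocyte markers, cytokines and immediate early genes, lists of genes low in FR, lie to the right of the line, and erythroid, hepatocyte, secreted protein and sterol synthesis lists to its left.

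Markers of the cell types of liver did not move together. In bulk libraries fewer cells of a type and less RNA per cell cannot be told apart. Of 11 hepatocyte markers 5 were DEGs lower and 0 higher, and 7 of the 11 were below the median of their own quintile. Under total count 3 of the 11 were DEGs lower and 2 higher. The summed level of the 11 markers was mostly Alb, whose counts are multiples of 9. Without Alb, and with the other multiples divided out (for Serpina1 the multiple of 3 seen in lung), the remaining 10 summed to 53871 to 62223 CPM in FR and 19033 to 27164 CPM in FR>FFPE. Hnf4a, the master regulator of hepatocyte identity, was at 138, 202 and 235 CPM in FR and at 190, 256 and 370 CPM in FR>FFPE (0.45 ± 0.20, adjusted p = 0.0460), a call lost when any of 7 single libraries was left out. Under TMM the hepatocyte list thus held a transcription factor that did not fall beside secreted proteins and enzymes that did. Under total count Alb and Apoa1 of this list were both at -0.06 and did not pass.

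Of 7 Kupffer cell and macrophage markers 1 was a DEG higher and 2 lower, and the summed level was 600.6 to 774.5 CPM in FR and 677.5 to 1104 CPM in FR>FFPE. The subunits of complement C1q, which form 1 complex, differed: C1qa went from 3.17 to 7.40 CPM to 8.33 to 23.4 CPM (1.15 ± 0.29) and C1qc from 326 to 473 CPM to 450 to 876 CPM (0.71 ± 0.20), while C1qb had a log2 fold change of -0.71 ± 0.27. Mrc1, the mannose receptor, fell by 1.43 ± 0.22. Of 3 endothelial markers Eng was higher (1.48 ± 0.23, fractional counts), Vwf lower (-1.12 ± 0.26, and -0.39 under total count, which did not pass) and Kdr neither (-0.72 ± 0.20).

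Of 8 stellate cell and vessel wall markers 4 were DEGs higher and 0 lower, with 4 of the 8 below the median of their own quintile. Col3a1, type III collagen, was at 403, 493 and 597 CPM in FR, at 1217, 2135 and 3211 CPM in FR>FFPE and at 386, 702 and 850 CPM in the directly fixed FFPE libraries, so it was highest in tissue frozen before fixation (2.08 ± 0.23 against FR, adjusted p = 4.75e-08). The summed level of this list, most of it Col3a1, was 647 to 1017 CPM in FR and 1414 to 3916 CPM in FR>FFPE. The list's other 3 DEGs were low: Myh11, Col1a1 and Col4a1 reached at most 0.518, 1.85 and 2.38 CPM in FR and 4.27, 5.69 and 6.26 CPM in FR>FFPE. Of 6 bile duct markers 3 were higher, with summed levels of 262 to 334 CPM in FR and 330 to 867 CPM in FR>FFPE. Krt8 rose from 163 to 243 CPM to 259 to 789 CPM (1.17 ± 0.25, and 0.50 without libraries 73, 74 and 78), its partner keratin Krt18 had a log2 fold change of 0.36 ± 0.18 that did not pass, and Krt7 went from a median of 3.62 to 13.5 CPM with overlapping groups (2.26 ± 0.60). Anxa4 was lower at an adjusted p under 0.05 (-0.82 ± 0.18, and -0.11 under total count).

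Of 8 lymphocyte markers 7 were DEGs higher. Their median level in FR was 1.25 CPM, a low level (85.3% of all genes in the lowest quintile and 47.6% in the second were DEGs higher), and 3 of the 8 were below the median of their own quintile. They went from a summed level of 16.6 to 28.7 CPM in FR to 40.4 to 134 CPM in FR>FFPE, with Gzmb at 0 in all FR libraries and at 4.63 to 46.7 CPM in FR>FFPE, at least 74.3-fold higher. Ptprc, the pan-leukocyte antigen CD45, went from 2.11 to 6.45 CPM to 8.43 to 25.6 CPM (2.18 ± 0.35), whereas Lck, a T cell kinase, had a log2 fold change of -0.62 ± 0.27 (adjusted p = 0.0473) that turned to 0.11 under total count and lost its call when any of 6 single libraries was left out. Of 7 genes matched by the erythroid and blood list 5 were DEGs lower, and the 1 higher was Hbegf, a growth factor that matched by its letters only (0 to 0.925 CPM in FR, 0 to 2.85 CPM in FR>FFPE), a call lost without library 78. Under total count 0 of the 7 were DEGs lower and 1 was higher, and the median log2 fold change went from -1.34 to -0.60. The summed level of the 7 genes was 7145 to 25094 CPM in FR and 2581 to 9639 CPM in FR>FFPE. Hbb, beta globin with fractional counts, was at 6747, 11214 and 24219 CPM in FR and at 2313, 3505 and 8882 CPM in FR>FFPE, so the groups overlapped (-1.60 ± 0.32, adjusted p = 0.000102). The alpha globin gene Hba-a2 had a log2 fold change of -0.16 ± 0.31 that did not pass. S100a8, a neutrophil calcium-binding protein, fell by 1.63 ± 0.28. C1qb, Krt18 and Hba-a2 were named after their values had been seen.

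Liver fixed directly, without freezing, was the group nearest in handling, and the comparison with it holds no frozen library. Of the 2281 genes, 778 were DEGs between FFPE and FR>FFPE (34.1%), 529 higher (23.2%) and 249 lower (10.9%) in FFPE; under total count these were 1076 and 30, and without libraries 73, 74 and 78 of FR>FFPE 602 and 254. The 5 largest rises of at least 20 CPM were Fitm1, Synpo2l, Mex3b, Hbegf and LOC100911204, which had medians of 0.448 to 2.03 CPM in FR>FFPE and 14 to 45.6 CPM in FFPE. Fitm1 and Synpo2l are genes of skeletal and heart muscle. Among the 5 largest falls, Lpl, lipoprotein lipase, was at 35, 128 and 271 CPM in FR>FFPE and at 13.5, 17.9 and 24.5 CPM in FFPE (-3.03 ± 0.40, adjusted p = 8.41e-07). Serping1, the C1 inhibitor, was at 1820 to 3140 CPM in FR>FFPE and 93.4 to 510 CPM in FFPE. Cyp3a23/3a1 and LOC108348085, both with fractional counts, and LOC102553715 completed them, LOC108348085 going from a median of 21.5 CPM to a median of 0. Because the FFPE libraries held at most 889125 counts, levels of a few CPM there rest on single counts.

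Whether the change from FR to FR>FFPE was that of liver alone was tested against rat lung, with 5 FR lung libraries (the sixth, with 12 counts in all, was left out) and 6 FR>FFPE lung libraries. Of 2322 genes in the joint fit, 1730 had the same direction in both tissues. There were 1142 DEGs in liver and 1338 in lung, and 763 were called in both with the same direction, 66.8% of those of liver and 57% of those of lung. The change itself differed between the tissues by at least 2-fold with an adjusted p under 0.05 for 721 genes (31.1%), 403 with a higher log2 fold change in liver (17.4%) and 318 with a lower one (13.7%). Under total count there were 620 such genes, 276 higher and the others lower, so the side with more genes turned with the scaling. It turned also without liver libraries 74 and 78 (562 genes, 185 higher and 377 lower), and not without libraries 73, 74 and 78 (727 genes, 407 higher and 320 lower).

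The named genes that differed most were high in the FR libraries of lung or of liver. Grm3, Fam183b, Lamp3, Ccl11 and Dynlrb2 were high in lung FR, at means of 41.8 to 5133 CPM, and lower in lung FR>FFPE, whereas in liver they went from 0 to 0.593 CPM in FR to 3.24 to 23.4 CPM in FR>FFPE. Lamp3, a lysosomal protein of alveolar type II cells, showed the pattern most plainly: 5133 ± 509 CPM in lung FR (SD, n = 5), 685 ± 365 CPM in lung FR>FFPE (n = 6), 0.232 ± 0.568 CPM in liver FR and 5.92 ± 2.48 CPM in liver FR>FFPE. In the other direction, Amy1a (fractional counts) and Urad, an enzyme of uric acid breakdown in liver, fell in liver from means of 2281 to 815 CPM and from 672 to 243 CPM on the joint scale, and had 0 counts in every lung FR library used and means of 32.1 and 30.5 CPM in lung FR>FFPE. LOC100912485, with fractional counts, had means of 1044 ± 908 CPM in liver FR and 355 CPM in liver FR>FFPE, and of 0.0642 and 104 CPM in the lung groups. The class I histocompatibility genes RT1-CE10 and LOC100364500, both with fractional counts, were different: they had 0 counts in every lung FR library used and means of 342 and 2355 CPM in lung FR>FFPE, beside 175 and 1209 CPM in liver FR and 312 and 2152 CPM in liver FR>FFPE. Both of these genes had a liver log2 fold change of 0.83 in the joint fit and kept the same proportion between groups, so they may not be separate measurements. Both lung groups carry the same strain label.

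**Figure D5:**
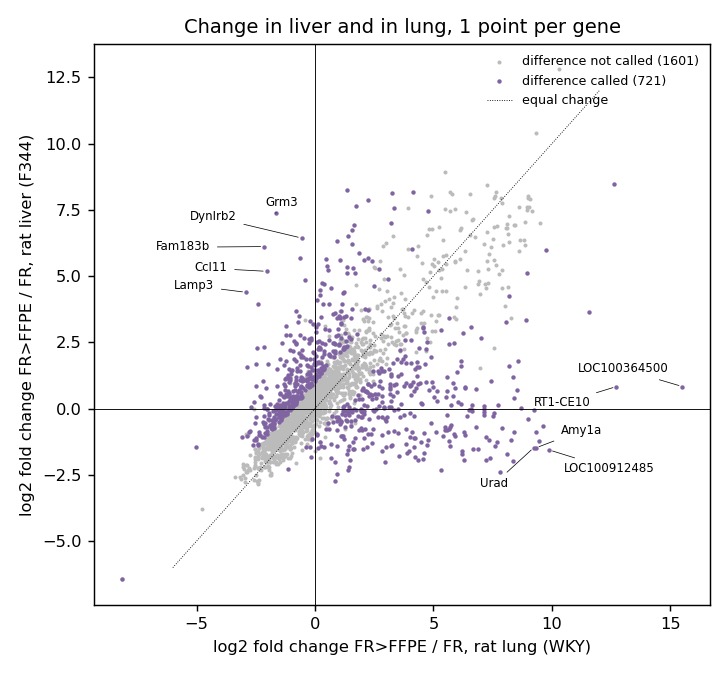
Log2 fold change FR>FFPE over FR in rat liver (y axis) against that in rat lung (x axis), 1 point per gene of the 2322 in the joint fit, purple where the difference between tissues was called. Genes with 0 counts in a group have fitted values that depend on the prior count; the 10 named genes lie far from the dotted line of equal change.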

How the data were processed

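The rat libraries were TempO-Seq runs. For the rat liver and lung tables the authors deposited estimated counts per gene, not scaled to library size; 87.5% of the liver values were whole, and 513 rows held fractions. A log2 table, log2(CPM + 1) over 2043 genes, was also deposited and used only as an alternative. The submitters' processing notes name CASAVA 1.8.2, STAR 2.5.3a, Partek and the builds rn6 and mm10, with no role stated for the rat libraries; the aligner and counter of these tables are not given in the sources used here. Coordinates are those of the table, which lie within rn6.

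Estimated counts were rounded to whole numbers. Groups came from the labels. edgeR 4.0.16 (R 4.3.3) fitted the 18 liver libraries with 3 group means after filterByExpr and TMM, with glmQLFit and glmQLFTest and Benjamini-Hochberg adjustment over 2281 genes; SE is the log2 fold change divided by the square root of F. A gene was a DEG where it changed by 2-fold or more and its adjusted p was below 0.05. The lung comparison was an interaction contrast in a joint fit. Library measures used exact permutation tests over 924 arrangements (scipy 1.17.1). Folds against a group with 0 counts used a floor of 3 counts over the group, and intervals are 95% exact binomial. Medians of lists did not move by 0.01 or more with the 213 genes near 0 set at these bounds.

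Alternatives were total count, DESeq2 1.42.0, other filters, fewer libraries, limma 3.58.1 on the deposited log2 table, thinning and leaving out libraries. The steps were tested on simulated data. The named genes were the 10 largest rises and falls among DEGs of at least 20 CPM in either group with libraries apart and the same direction under both scalings, the largest rise, largest fall and most abundant member of each list, the 5 largest rises and falls of the other comparisons, and the 5 most abundant genes of each group. Members, lists and rules were chosen with earlier results of these data known. Replicates of a group differed by at least 2.77 times the sampling noise (chi-square per degree of freedom). Each library was counted as its own sample, although this spread does not show whether the libraries came from separate rats. The mouse tables, the lung log2 table, rat probe sequences and the lung FFPE group were not used here, and a few genes that the rule names are not reported here.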

Additional observations from a re-analysis of the deposited data

Results flagged for a closer look

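Single libraries stood far from the others of their group for 13 of 222 gene and group combinations tested (gap over range above Dixon's critical value of 0.625 for 6 libraries); chance alone gives about 1 in 20. Among FR libraries, replicate 68 was high for Abcg8 (0.586 CPM) and Rrm2b (255 CPM), replicate 70 for Egr2 (0.463 CPM) and Pklr (225 CPM), and replicate 71 for Nr0b1 (0.475 CPM); the values of Abcg8, Egr2 and Nr0b1 are each a single count. Among FR>FFPE libraries, replicate 73 was high for C1qa (23.4 CPM) and Hbb (8882 CPM), and replicate 74 for Cdc20 (409 CPM) and Hmgcs1 (90.8 CPM). Replicate 78 was high for Chac1 (6.55 CPM), Cox8b (5.98 CPM) and Gzmb (46.7 CPM) and low for Cat (7876 CPM).

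The change from FR to FR>FFPE differed between liver and lung for 721 genes in edgeR's interaction contrast. Liver minus lung, the difference of log2 fold changes was 9.03 for Grm3, 8.26 for Fam183b, 7.30 for Lamp3, 7.21 for Ccl11 and 6.99 for Dynlrb2. In the other direction it was -14.67 for LOC100364500, -11.89 for RT1-CE10, -11.43 for LOC100912485, -10.80 for Amy1a and -10.71 for Urad. Where a group had 0 counts, as for Grm3, Fam183b, LOC100364500, RT1-CE10, Amy1a and Urad, the fitted size depends on the prior count and is no bound.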

How the results depend on the processing

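No paired analysis was possible because the FR, FR>FFPE and FFPE libraries of rat liver share no replicate number. The 1138 DEGs of FR>FFPE against FR became 350 (219 higher, 131 lower) when every library was thinned to 139477 counts, and the 778 DEGs of FFPE against FR>FFPE became 185; thinning leaves fewer counts per gene. Without the fold change the second comparison gave 1228 genes. Leaving out 1 library gave 1046 to 1202 DEGs for FR>FFPE against FR, 691 to 859 for FFPE against FR>FFPE and 682 to 756 for liver against lung. Total count turned the log2 fold change of 7 named genes: C3 to 0.23, Calr to 0.39, Cdc20 to 0.59, Cxcl12 to 0.23, Gsta2 to 0.18, Lck to 0.11 and Rps6 to 0.038. A further 11 lost their call and 1 gained one; under DESeq2 these were 1 (Lck) and 1 (C3). DESeq2 gave 1135 DEGs, the deposited log2 table with limma 981, no filter 1186, a geometric mean filter 909 and FR with FR>FFPE alone 815. Chosen after seeing the data, fits without libraries 73, 74 and 78 gave 892, without 75, 76 and 77 gave 1346, without 74 and 78 gave 979, with TMM from abundant genes 1212 and with multiples divided out 1130. Of the DEGs, 301 higher and 114 lower were also called under total count, DESeq2, limma, FR with FR>FFPE alone and each of the fits chosen after seeing the data. Low genes rest on few counts, so their fold sizes are the least certain.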
